A study of Mus musculus with 32 samples.

Results

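The genes described here are the protein-coding genes of GENCODE on GRCm38 that start between 90 and 115 Mb on chromosome 8 of the mouse, the stretch that holds Cdh8 and Cdh11. Cdh1, Cdh3, Cdh5, Cdh8, Cdh11, Irx3 and Irx5 were left out by the rule. The rule found 235 genes, and 232 of them were joined by Ensembl ID to the 48576 identifiers of the expression files. The rule uses gene type and position and no measured value of the genes.

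RNA from the forebrain (Fb) and midbrain (Mb) of B6C3F1 embryos at E9.5 was sequenced in 32 libraries, 16 per tissue. Each tissue had 6 WT libraries, 4 of triple knockouts of Cdh6, Cdh8 and Cdh11 with exencephaly (TKO_Ex), 3 of double knockouts with exencephaly (DKO_Ex), and 3 of double knockouts with a cranial defect, an elongated midbrain without exencephaly (DKO_CD). The labels name DKO_Ex a Cdh8 and Cdh11 double knockout and DKO_CD a Cdh6 and Cdh8 double knockout, whereas the study's text calls both groups Cdh8 and Cdh11 double knockouts. By either naming the Cdh8 deletion is shared by all 3 mutant groups. All deleted alleles came from one genome-edited founder and are small deletions in the exons with the start codons. WT embryos came from WT matings and mutants from matings of triple heterozygotes, so genotype and mating cannot be told apart. In the 12 files of the double knockouts the column heading names the opposite group to the record that lists the file, and the groups used here follow the headings.

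Cadherins are calcium-dependent adhesion molecules that join neighbouring cells, mostly by binding the same or a related cadherin on the next cell. The type II family, to which Cdh6, Cdh8 and Cdh11 belong, is expressed in patches along the early neural tube. Cdh8 and Cdh11 lie side by side in a gene-poor stretch of chromosome 8, flanked on both sides by clusters of housekeeping and other genes. Cdh6 lies on another chromosome. The question addressed here was whether expression of the genes around the 2 deletions differed from WT, and whether it did so more often close to them.

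The coding parts of the 2 edited exons fix the point from which each distance was measured. They are printed 5′ to 3′ as the reference strand of each gene reads, without the untranslated part, and the capitals mark the annotated start codon. Cdh8 (ENSMUSG00000036510) is on the minus strand, and this part of its exon is at chr8:99400726-99400977 on GRCm38. Cdh11 (ENSMUSG00000031673) is on the minus strand as well, and this part of its exon is at chr8:102679612-102679839. The sequences are the reference and not the deleted alleles.
Cdh8: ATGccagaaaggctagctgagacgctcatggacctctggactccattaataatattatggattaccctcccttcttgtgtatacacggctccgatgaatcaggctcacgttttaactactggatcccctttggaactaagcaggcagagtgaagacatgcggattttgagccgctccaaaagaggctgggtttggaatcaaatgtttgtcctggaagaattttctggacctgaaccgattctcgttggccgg
Cdh11: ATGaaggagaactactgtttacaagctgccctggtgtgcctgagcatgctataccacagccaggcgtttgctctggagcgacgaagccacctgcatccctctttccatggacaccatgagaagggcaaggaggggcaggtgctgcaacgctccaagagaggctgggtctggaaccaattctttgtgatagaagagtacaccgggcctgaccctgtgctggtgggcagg

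Of the 232 genes, 69 start below Cdh8 and 163 above Cdh11, and 0 start between the 2 start codons. Their starts lie 1.49 to 11.8 Mb from the nearer start codon. FPKM, the number of fragments scaled to transcript length and to the mapped fragments of the library, is a level per length, so it can be compared between genes. The mean over all 32 libraries was at least 1 FPKM for 150 of the 232 (64.7%), against 53.6% of all 21697 protein-coding genes in the files. The median level of those 150 genes was 11.4 FPKM, against 11.1 FPKM for all protein-coding genes at that level or above. Below Cdh8, 44 genes reached a mean of 1 FPKM, of which Got2 lay nearest to the deletion, at 3.54 Mb. Above Cdh11, 106 did so, of which Tk2 lay nearest, at 1.55 Mb.

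The levels within the interval ran from none to 646 FPKM. Under 1 FPKM in every library were 61 genes, of which 34 were listed at 0 in every library. The carboxylesterases, enzymes known from liver and intestine, had 19 Ces genes in the interval, not all in a single cluster. Of these, 15 were at 0 in every library, and the highest value of any Ces gene in any library was 3.08 FPKM. Means of at least 100 FPKM were found for 8 genes. The highest was Gm10073, a single-exon gene, at 646 FPKM. It was followed by the metallothionein Mt2, a metal-binding protein, at 207 FPKM, and by the chromatin-associated Cfdp1 at 152 FPKM. Kars, the lysyl-tRNA synthetase, reached 141 FPKM and Mt1 133 FPKM. Chtf8, a subunit of a clamp loader used in sister chromatid cohesion, reached 124 FPKM, Psmd7, a lid subunit of the 26S proteasome, 115 FPKM, and Got2, the mitochondrial aspartate aminotransferase, 101 FPKM.

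The depth behind these levels was 1.95 to 3.25 M fragments per library, estimated from the step between low FPKM values, so that a gene near 1 FPKM rests on few fragments. The deletions are small and need not remove the RNA, and no library was assigned to a group by the level of a targeted gene. Cdh8 in the Mb ran from 1.14 to 10.1 FPKM in WT and from 0.851 to 2.49 FPKM in the mutants, and Cdh11 from 17.9 to 28.7 FPKM and from 14.5 to 27.2 FPKM. Forebrain markers summed to 162 to 222 FPKM in the WT Fb and to 0.969 to 13.1 FPKM in the WT Mb. Replicate 5 of the WT Mb stood apart, with 3.57 FPKM of the midbrain marker En1 against a WT Mb median of 41.8 FPKM. Cdh6 ran from 1.04 to 3.55 FPKM in the WT Mb and from 2.04 to 4 FPKM in the WT Fb, with medians of 0.371 and 1.30 FPKM in TKO_Ex. In TKO_Ex replicate 3 it was at 3.10 FPKM in the Mb and 3.74 FPKM in the Fb, within the range of the WT libraries. In the libraries labelled a Cdh6 and Cdh8 double knockout (DKO_CD), Cdh6 overlapped WT, at 1.29 to 2.11 FPKM in the Mb and 1.72 to 3.43 FPKM in the Fb, which goes against a loss of Cdh6 RNA in them. In DKO_Ex it was at 1.86 to 3.12 FPKM in the Mb and 3.62 to 4.34 FPKM in the Fb. The pooled Mb result was recomputed without WT Mb replicate 5 and TKO_Ex Mb replicate 3, as given below. Replicates carry no label of litter or embryo, so p-values measure the spread between these libraries, which may be in part technical.

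When the 10 mutant libraries of each tissue were pooled and compared with the 6 WT libraries, 1 member passed the threshold in the Mb and 2 in the Fb. Ciapin1 was lower in both tissues, and Cog8 was higher in the Fb. The threshold was an adjusted p under 0.05 in limma, adjusted over all genes tested. In the Mb, 149 members were tested, and the share of all 13363 genes past the threshold was 0.127%. In the Fb, 149 members were tested, and the share of all 13272 genes was 0.203%. The pool mixes genotypes, and its test says nothing of any one of them.

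Ciapin1 (ENSMUSG00000031781) encodes anamorsin, which takes part in the assembly of cytosolic iron-sulfur proteins and is known as an inhibitor of apoptosis. The gene lies on the minus strand at chr8:94819804-94838358, 4.58 Mb below Cdh8. In the Mb, the 6 WT libraries were at 60.2, 50.3, 49.8, 59.5, 55.8 and 46.6 FPKM. The 4 TKO_Ex libraries were at 39.9, 36.8, 43.6 and 34.1 FPKM, the 3 DKO_Ex libraries at 34.9, 34.7 and 33.9 FPKM, and the 3 DKO_CD libraries at 31.5, 38.2 and 33.6 FPKM. Every mutant Mb library lay below every WT Mb library. The means were 53.7 ± 5.63 FPKM in WT (SD, n = 6) and 36.1 ± 3.59 FPKM in the mutants (SD, n = 10). The log2 fold change, on the log2(FPKM + 1) scale used throughout, was -0.56 (SE 0.077, limma adjusted p = 0.00241). Without WT Mb replicate 5 and TKO_Ex Mb replicate 3 it was -0.58 (limma adjusted p = 0.00347), an alternative chosen after seeing the data. In bulk tissue, fewer cells of a type that express a gene and less RNA per cell cannot be told apart.

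In the Fb, Ciapin1 was at 60.3, 60.6, 53.0, 60.9, 61.0 and 49.4 FPKM in the 6 WT libraries. The TKO_Ex libraries were at 37.9, 44.1, 38.4 and 35.4 FPKM, the DKO_Ex libraries at 41.6, 30.7 and 52.5 FPKM, and the DKO_CD libraries at 36.1, 39.4 and 38.2 FPKM. TKO_Ex and DKO_CD lay below every WT library, while DKO_Ex replicate 3 lay between WT libraries. The means were 57.5 ± 5.05 FPKM in WT (SD, n = 6) and 39.4 ± 5.82 FPKM in the mutants (SD, n = 10), with a log2 fold change of -0.54 (SE 0.092, limma adjusted p = 0.0149). This call was lost without WT Fb replicate 2 (limma adjusted p = 0.0509) or WT Fb replicate 5 (limma adjusted p = 0.0528).

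Compared group by group, Ciapin1 passed no adjusted test in any mutant group. Its log2 fold changes in the Mb were -0.46 in TKO_Ex (limma adjusted p = 0.164), -0.62 in DKO_Ex (limma adjusted p = 0.104) and -0.62 in DKO_CD (limma adjusted p = 0.179). In the Fb they were -0.55 in TKO_Ex (limma adjusted p = 0.104), -0.49 in DKO_Ex (limma adjusted p = 0.465) and -0.59 in DKO_CD (limma adjusted p = 0.0896). Ciapin1 had the lowest adjusted p of all members tested in 5 of these 6 comparisons, all of which share the WT libraries of their tissue. The 5′ end of Ciapin1 overlaps that of Coq9, a coenzyme Q biosynthesis gene on the plus strand, by 38 bases, and the alignment used strand. Coq9 was at 12.1 ± 3.55 FPKM in WT Mb libraries (SD, n = 6), with 11.1 ± 1.90 FPKM in mutant Mb libraries (SD, n = 10, limma adjusted p = 0.909). In the Fb it was at 10.9 ± 1.56 FPKM in WT (SD, n = 6) and 11.5 ± 2.69 FPKM in the mutants (SD, n = 10, limma adjusted p = 0.937).

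Cog8 (ENSMUSG00000031916) encodes a subunit of the conserved oligomeric Golgi complex, which tethers vesicles that return proteins within the Golgi. The gene lies on the minus strand at chr8:107046289-107056689, 4.37 Mb above Cdh11. In the Fb, the WT libraries were at 7.89, 9.86, 9.28, 9.77, 10.6 and 10.1 FPKM. The TKO_Ex libraries were at 13.8, 14.2, 15.3 and 12.4 FPKM, the DKO_Ex libraries at 12.6, 12.8 and 12.9 FPKM, and the DKO_CD libraries at 12.8, 11.5 and 15 FPKM. Every mutant Fb library lay above every WT Fb library. The means were 9.59 ± 0.938 FPKM in WT (SD, n = 6) and 13.3 ± 1.22 FPKM in the mutants (SD, n = 10), with a log2 fold change of 0.44 (SE 0.078, limma adjusted p = 0.0220). The call was lost when any one of WT Fb replicates 1, 2, 3 or 4 was left out, with limma adjusted p = 0.0652, 0.0509, 0.0714 and 0.0526. When each library was scaled by the median of its ratios to the other libraries, Cog8 in the mutants and WT overlapped.

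In the Mb, Cog8 was at 6.92, 13.2, 11.6, 10.7, 11.1 and 13.5 FPKM in WT. It was at 17.5, 5.92, 16.8 and 10.6 FPKM in TKO_Ex, 12.4, 12.3 and 13.5 FPKM in DKO_Ex, and 11.2, 14.1 and 12.3 FPKM in DKO_CD. The groups overlapped, with the lowest and the highest library both in TKO_Ex. The log2 fold change of the pooled mutants was 0.15 (SE 0.18, limma adjusted p = 0.892). Cog8 shares 2326 bases on the same strand with Pdf, the mitochondrial peptide deformylase, so how fragments were split between them is uncertain. In the Fb, Pdf was at 24.0 ± 2.87 FPKM in WT (SD, n = 6) and 20.9 ± 3.51 FPKM in the mutants (SD, n = 10, limma adjusted p = 0.602).

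**Figure D1:**
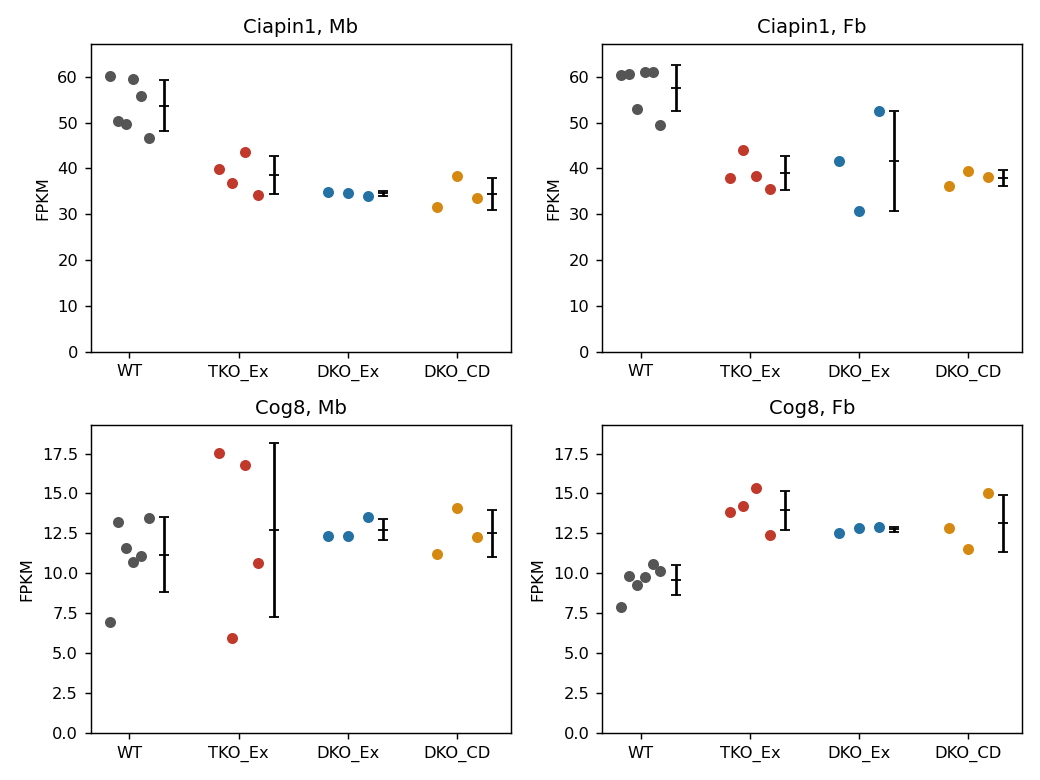
FPKM of Ciapin1 and Cog8 in each library of the Mb and Fb, by group (points), with the mean and SD of the group beside them (bars). Ciapin1 in the Mb sits at 31.5 to 43.6 FPKM in the mutants and at 46.6 to 60.2 FPKM in WT, Cog8 in the Fb at 11.5 to 15.3 FPKM in the mutants and at 7.89 to 10.6 FPKM in WT, and Cog8 in the Mb overlaps.

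No member under 4 Mb from a deletion passed the threshold in the pooled comparisons, and all 3 calls, from the 2 genes, were of genes 4 to 6 Mb away. Gm10073, 3.89 Mb above Cdh11, passed in the pooled Mb when WT Mb replicate 4 or WT Mb replicate 6 was left out. In the Mb, the median absolute log2 fold change was 0.10 in the 58 members under 4 Mb away, 0.10 in the 44 at 4 to 6 Mb, 0.076 in the 12 at 6 to 8 Mb and 0.080 in the 35 at 8 Mb or more. In the Fb the same medians were 0.10, 0.12, 0.094 and 0.073. The median over all genes tested was 0.11 in the Mb and 0.12 in the Fb. Of the distance classes, only that of 4 to 6 Mb in the Fb lay above this median of its tissue. Over protein-coding genes alone, as the members are, the median was 0.1016 in the Mb and 0.1075 in the Fb. In the Mb the classes under 4 Mb (0.1036) and at 4 to 6 Mb (0.1021) lay just above that median. In the Fb it was again only the class of 4 to 6 Mb.

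At an unadjusted p under 0.05, 11 of the 149 members in the Mb (7.38%) and 13 of the 149 in the Fb (8.72%) were counted, against 7.59% and 9.1% of all genes tested. Under 4 Mb from a deletion, 5 of 58 members were counted in the Mb and 7 of 58 in the Fb. At 8 Mb or more it was 1 of 35 in each tissue. Below Cdh8, 3 of 44 members were counted in the Mb and 5 of 44 in the Fb, and above Cdh11, 8 of 105 in each. The medians of the signed log2 fold changes were 0.019 in the Mb and 0.042 in the Fb. The Spearman correlation of the absolute log2 fold change with the distance was 0.0077 over the 149 members in the Mb and -0.12 in the Fb, as a description over genes that share the same libraries.

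**Figure D2:**
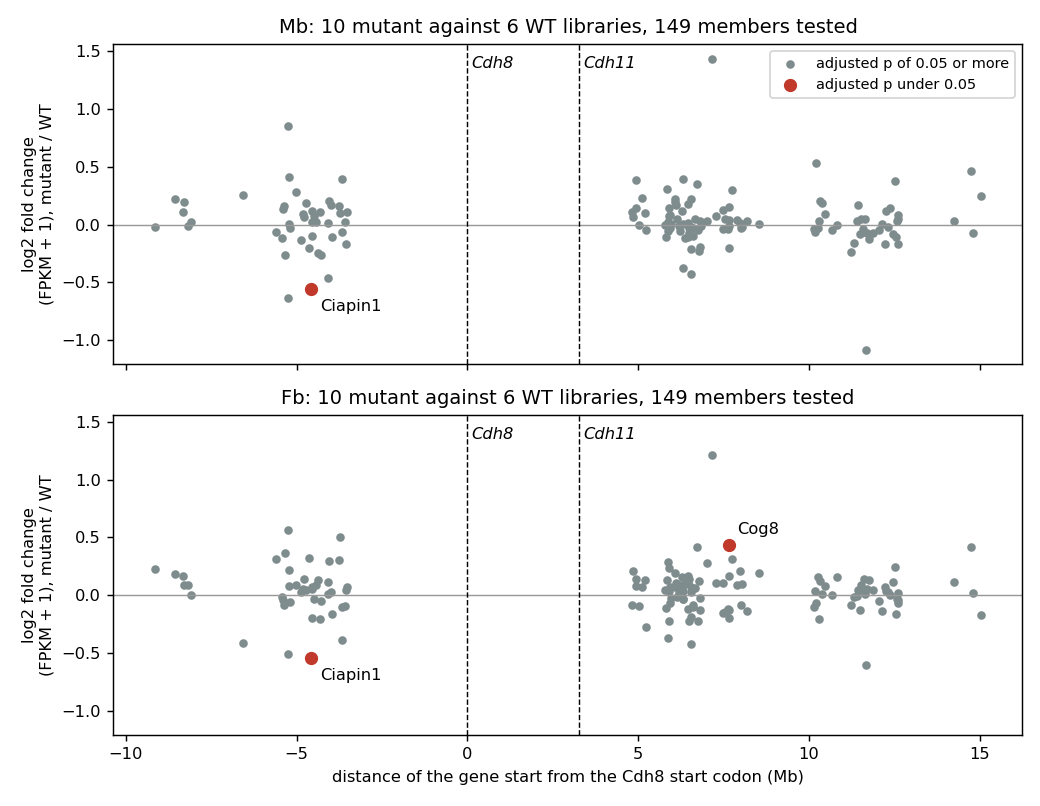
The log2 fold change of the 10 mutant libraries against the 6 WT libraries, on the log2(FPKM + 1) scale, for each of the 149 members tested in the Mb (top) and in the Fb (bottom), by distance of the gene start from the Cdh8 start codon in Mb. Dashed lines mark the start codons of Cdh8 and Cdh11, and large points are members with an adjusted p under 0.05: Ciapin1 at -0.56 and -0.54, and Cog8 at 0.44 in the Fb.

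The genes next to the deletions overlapped WT. On the side of Cdh8, Got2 was at 95.9 ± 8.38 FPKM in WT Mb libraries (SD, n = 6), with 103 ± 3.13 FPKM in mutant Mb libraries (SD, n = 10, limma adjusted p = 0.674). Slc38a7, an amino acid transporter, was at 7.28 ± 1.82 and 6.37 ± 1.48 FPKM (limma adjusted p = 0.842). Sap18b, a relative of a subunit of a histone deacetylase complex, was at 51.0 ± 13.2 and 50.8 ± 5.09 FPKM (limma adjusted p = 0.979). On the side of Cdh11, the mitochondrial thymidine kinase Tk2 was at 8.22 ± 2.04 and 8.85 ± 1.82 FPKM (limma adjusted p = 0.908). The chemokine-like factor Cklf was at 7.36 ± 2.54 and 7.65 ± 2.20 FPKM (limma adjusted p = 0.954), and Cmtm3 of the same family at 17.2 ± 4.57 and 23.3 ± 7.60 FPKM (limma adjusted p = 0.686). In the Fb the adjusted p of these 6 genes was between 0.778 and 0.947. For 5 of the 6 in the Mb, Cmtm3 being the exception, the difference between the means was smaller than the SD of WT.

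The interval was also set beside the rest of chromosome 8. In the Mb, 83 of 495 other genes of the chromosome (16.8%) had an unadjusted p under 0.05 and 6 passed the adjusted threshold. In the Fb it was 98 of 499 (19.6%) and 10. These other genes were of any gene type and included left-out genes, whereas all members are protein-coding. The median absolute log2 fold change of the other genes was 0.14 in the Mb and 0.15 in the Fb, against 0.096 and 0.10 in the members. By windows of 5 Mb, which were drawn after the values were seen and include the left-out genes, the shares inside the interval ran from 3.12% to 12.5% in the Mb and from 3.12% to 18.8% in the Fb. Between 65 and 75 Mb they were 43.5% of 23 and 27.5% of 80 genes in the Mb, and 55% of 20 and 33.8% of 80 genes in the Fb. Just below the interval, at 85 to 90 Mb, 26.7% of 30 genes were counted in each tissue, and just above it, at 115 to 120 Mb, 21.1% of 19 in the Mb and 19% of 21 in the Fb. The other windows outside the interval ran from 0% to 40% in the Mb and from 0% to 30% in the Fb. At 45 to 50 Mb, for example, the share was 0% of 20 genes in the Mb and 5% of 20 in the Fb. The differences in share between the interval and the rest of the chromosome were not tested.

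**Figure D3:**
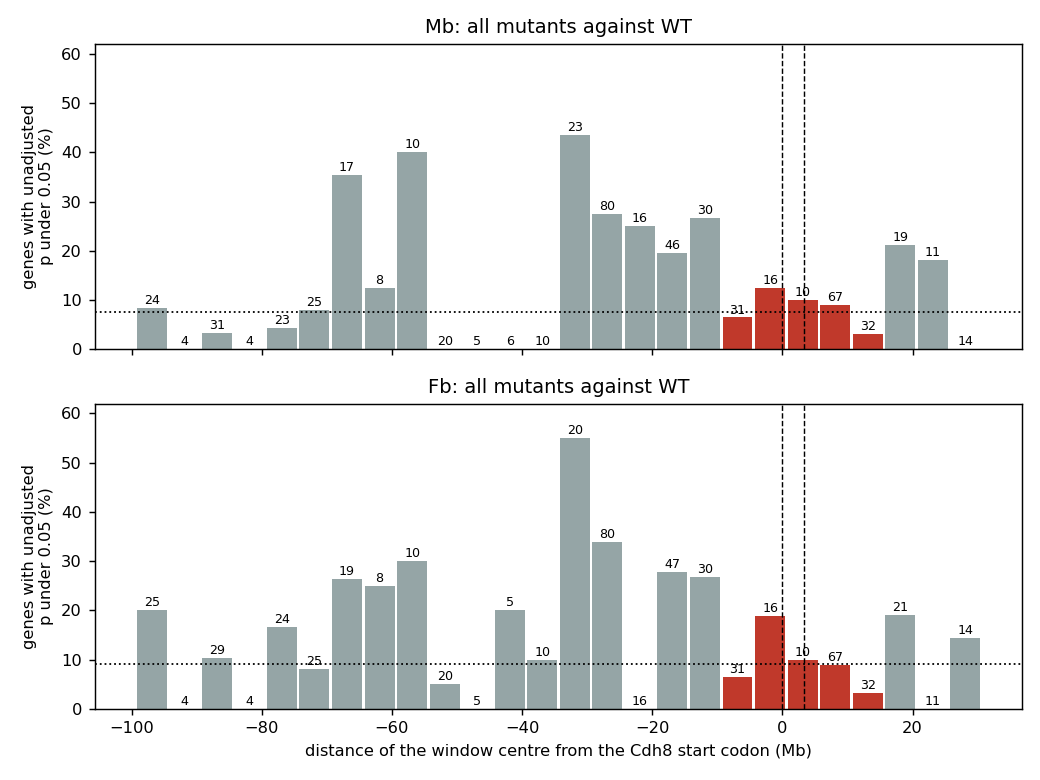
Share of protein-coding genes with an unadjusted limma p under 0.05, pooled mutants against WT, in windows of 5 Mb along chromosome 8, by distance of the window's centre from the Cdh8 start codon in Mb, with the number of genes tested above each bar. Red bars are the windows of the interval, dashed lines the start codons of Cdh8 and Cdh11, and the dotted line the share over all genes, 7.59% in the Mb (top) and 9.1% in the Fb (bottom). The red bars stay at or below 12.5% in the Mb and 18.8% in the Fb.

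Read by the roles of the members, the 2 calls fell in 2 of 8 lists. Among genes of mitochondria and metabolism, 20 were tested, of which Ciapin1 was lower in both tissues, and the median log2 fold change was 0.037 in the Mb and 0.029 in the Fb. Among genes of membrane traffic, 12 were tested, of which Cog8 was higher in the Fb, with medians of 0.040 and 0.029. In gene regulation and chromatin (23 tested), in RNA processing, export and translation (21), in protein turnover (10), in telomere binding (3), in the primary cilium and microtubules (11) and in neural signalling and adhesion (12 in the Mb and 11 in the Fb), 0 members passed in either tissue. At an unadjusted limma p under 0.05 these 6 lists held 2, 0, 2, 0, 1 and 0 members in the Mb and 2, 1, 0, 0, 0 and 3 in the Fb. Their medians lay between -0.055 and 0.16, the latter from the 3 telomere-binding genes in the Fb.

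The most abundant gene of each list had overlapping groups in the pooled comparisons. Chtf8 was at 113 ± 11.8 FPKM in WT Mb libraries (SD, n = 6), with 123 ± 8.14 FPKM in mutant Mb libraries (SD, n = 10, limma adjusted p = 0.682). Cfdp1 was at 140 ± 18 and 154 ± 11.5 FPKM (limma adjusted p = 0.674), and Mt2 at 152 ± 57.1 and 158 ± 71.4 FPKM (limma adjusted p = 0.997). The SD of Mt2 was far larger than the difference between its means. Arl2bp, a partner of the small GTPase Arl2, was at 69.9 ± 4.31 and 80.3 ± 10.4 FPKM (limma adjusted p = 0.607). Ap1g1, a subunit of the clathrin adaptor of the trans-Golgi, was at 32.1 ± 3.65 and 36.8 ± 4.47 FPKM (limma adjusted p = 0.653). Acd, a telomere-capping protein, was at 21.9 ± 3.38 and 23.9 ± 3.27 FPKM (limma adjusted p = 0.835). Adgrg1, an adhesion receptor of neural progenitors, was at 43.1 ± 10.5 and 43.1 ± 7.86 FPKM (limma adjusted p = 0.988). Psmd7 in the Fb was at 124 ± 8.91 and 112 ± 10.6 FPKM (limma adjusted p = 0.561). In the Fb, the limma adjusted p of the other 7 was between 0.757 and 0.998.

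In the comparisons of single groups with WT, 0 members passed the limma threshold in any of the 6. At an unadjusted p under 0.05, TKO_Ex counted 9 of 150 members in the Mb and 14 of 151 in the Fb. DKO_Ex counted 8 of 151 and 7 of 149, and DKO_CD 14 of 150 and 13 of 148. The shares were 6%, 5.3% and 9.33% in the Mb and 9.27%, 4.7% and 8.78% in the Fb. Over all genes they were 8.38%, 5.46% and 6.69% in the Mb and 8.66%, 7.01% and 8.44% in the Fb. The shares of all genes past the adjusted threshold were 0.0898%, 0.0903% and 0.0375% in the Mb and 0.0603%, 0.0759% and 0.0378% in the Fb.

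A second description counts the members whose mutant libraries all lie on one side of every WT library. Of the pooled mutants this held for Ciapin1 in the Mb (1 of 149, against 0.135% of all genes) and for Cog8 in the Fb (1 of 149, against 0.203%). In the Mb it held for 4 of 150 members in TKO_Ex, 4 of 151 in DKO_Ex and 7 of 150 in DKO_CD, where 1.74%, 3% and 3.38% of all genes did so. In the Fb it held for 6 of 151 members in TKO_Ex, 2 of 149 in DKO_Ex and 9 of 148 in DKO_CD, where 2.23%, 3.7% and 4.22% of all genes did so. Grouping the double knockouts by record instead of heading only exchanges the names DKO_Ex and DKO_CD. The counts then changed places, with 7 members in DKO_Ex and 4 in DKO_CD in the Mb, and 9 and 2 in the Fb. On the same side in both tissues were Ciapin1 in TKO_Ex and Ciapin1 and Gm10073 in DKO_CD, and no member in DKO_Ex or in the pool. Of all genes this held for 0.149% in TKO_Ex, 0.432% in DKO_CD, 0.411% in DKO_Ex and 0.0703% in the pool.

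**Figure D4:**
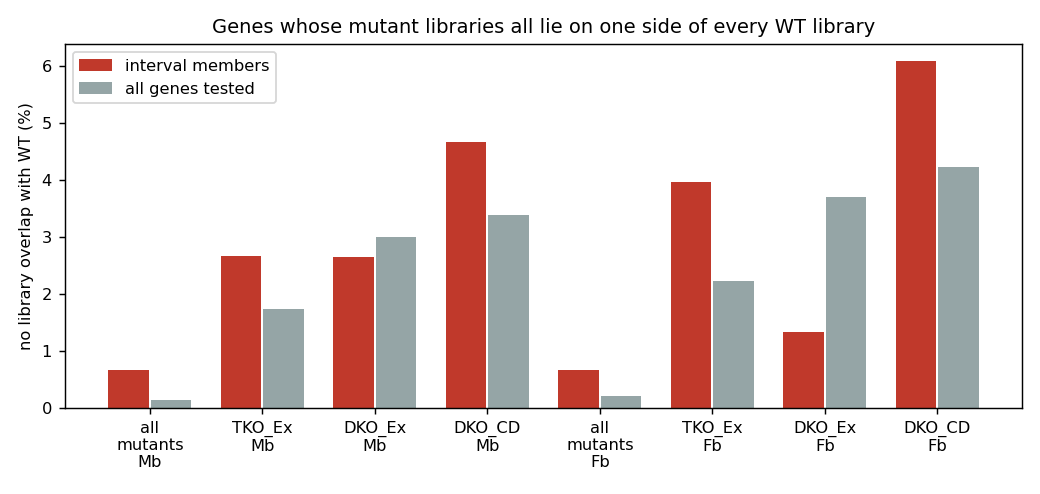
Share in percent of the interval members tested (red) and of all genes tested (grey) whose mutant libraries all lie on one side of every WT library, for each comparison. The red bars stand at 4.67% for DKO_CD in the Mb and 6.08% for DKO_CD in the Fb, against 3.38% and 4.22% of all genes, and the red bar is the lower one for DKO_Ex in both tissues.

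The genes behind these counts were named after their values were seen, and none passed the adjusted test in these comparisons. In the TKO_Ex Mb, the polarity protein gene Pard6a was at 16.3, 21.1, 13.9 and 14.1 FPKM, above the WT range of 5.91 to 12 FPKM (log2 fold change 0.83, limma adjusted p = 0.195). Dhodh, an enzyme of pyrimidine synthesis, ran from 19.4 to 22.9 FPKM there, above 9.21 to 17.2 FPKM in WT (0.54, limma adjusted p = 0.337). Mtss1l, a regulator of actin at membranes, ran from 15.4 to 17.5 FPKM, below 17.9 to 21.7 FPKM in WT (-0.30, limma adjusted p = 0.368). Pard6a did not stand apart in the other mutant groups, where its Mb values ran from 4.18 to 24.5 FPKM. In the TKO_Ex Fb the genes other than Ciapin1 and Cog8 were Cx3cl1, a membrane-bound chemokine, 4931428F04Rik and Chtf8, above WT, and Dync1li2, a dynein subunit, below WT.

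In the DKO_Ex Mb, the protein methyltransferase gene Setd6 was at 14.5, 14.4 and 20.5 FPKM, above the 6 WT libraries at 9.18, 10.7, 12.6, 11.3, 10.9 and 10.5 FPKM (log2 fold change 0.54, limma adjusted p = 0.501). In the DKO_CD Mb it was at 12.8, 14.6 and 16.1 FPKM, above WT as well (0.38, limma adjusted p = 0.584). Tmem231, a protein of the base of the cilium, also lay above WT in both double knockouts, with log2 fold changes of 0.47 and 0.45 (limma adjusted p = 0.669 and 0.512). The remaining gene of the DKO_Ex Mb was Gins3, of the DNA replication machinery, above WT. In the DKO_Ex Fb, the splicing factor gene Dhx38 lay below WT and Cog8 above.

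In the DKO_CD Mb, Psmb10, a subunit of the immunoproteasome, was at 20.4, 12.4 and 13.5 FPKM, below the WT range of 21.0 to 41.3 FPKM (log2 fold change -0.82, limma adjusted p = 0.512). Exosc6, a subunit of the RNA exosome, was at 3.54, 4.31 and 4.28 FPKM, below the WT range of 5.10 to 16.2 FPKM (-1.22, limma adjusted p = 0.507). In TKO_Ex, Exosc6 ran from 0.0383 to 27.5 FPKM in the Mb, a spread wider than that of WT. Atxn1l lay above WT in the DKO_CD Mb (0.53, limma adjusted p = 0.489). Gm10073 was at 716, 867 and 946 FPKM in the DKO_CD Mb, above WT libraries at 157, 146, 155, 571, 409 and 499 FPKM (1.61, limma adjusted p = 0.512). In the DKO_CD Fb it was at 947, 931 and 859 FPKM, above 174 to 802 FPKM in WT (1.39, limma adjusted p = 0.5). Its log2 fold change in the pooled mutants was 1.44 in the Mb (limma adjusted p = 0.0828) and 1.21 in the Fb (limma adjusted p = 0.282). Its call in the pooled Mb without WT Mb replicate 4 or WT Mb replicate 6 raised the count of members there from 1 to 2.

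In the DKO_CD Fb, Esrp2, a regulator of splicing in epithelia, was at 4.45, 5.80 and 2.68 FPKM, above WT libraries at 1.54, 1.99, 1.53, 1.58, 1.30 and 1.25 FPKM (log2 fold change 1.03, SE 0.21, limma adjusted p = 0.230). The 6 surface ectoderm markers, all of which were detected, summed to 72.3 to 196 FPKM in these 3 libraries and to 54.0 to 87.0 FPKM in the WT Fb. The highest sum and the highest Esrp2 were both in DKO_CD Fb replicate 2, which had 46.5 FPKM of the epithelial marker Epcam against 13.8 and 16.8 FPKM in the other 2, and the part of surface ectoderm in this result was not tested. In the TKO_Ex Fb, where the sum was 83.1 to 215 FPKM, Esrp2 was at 1.25, 1.88, 1.14 and 2.63 FPKM. Over all libraries Esrp2 rests on few fragments, an estimated 0 to 18 per library. Ndrg4, a gene of brain and heart, was at 2.61, 3.15 and 3.39 FPKM, above 1.11 to 2.16 FPKM in WT (0.68, limma adjusted p = 0.411). The other DKO_CD Fb genes above WT were 4931428F04Rik, the palmitoyltransferase gene Zdhhc1, Ist1 of the membrane-scission machinery and Ddx19a of mRNA export, with log2 fold changes of 0.14 to 0.34. Grouped by record, the Fb libraries of DKO_CD are those called DKO_Ex here, in which Zdhhc1 had a log2 fold change of -0.18.

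Summed markers of cell types and regions also differed between groups in the Fb. The summed level of 7 mesenchyme markers was 182 to 208 FPKM in WT, 126 to 167 FPKM in TKO_Ex and 139 to 155 FPKM in DKO_Ex, below WT without overlap, and 95.3 to 202 FPKM in DKO_CD. The 7 neural progenitor markers summed to 336 to 446 FPKM in WT and 449 to 485 FPKM in DKO_CD, above WT. Singly, only Sox2 and Nes of these lay above WT and the others overlapped it. Pax6 ran from 44.5 to 59.4 FPKM in the DKO_CD Fb and from 46.5 to 65.9 FPKM in the WT Fb. The 7 midbrain markers summed to 12.8 to 16.1 FPKM in the WT Fb and 17.1 to 18.7 FPKM in the TKO_Ex Fb, above WT. Not every marker of that list was higher. En1 ran from 0 to 0.936 FPKM in the WT Fb and from 0 to 0.461 FPKM in the TKO_Ex Fb. The part of these marker lists in the values of Ciapin1, Cog8 and the other members was not tested. All other sums in the Fb overlapped WT, among them those of forebrain, endothelium, primitive red cell and surface ectoderm markers. In the Mb the sums of these lists overlapped WT in every mutant group.

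The effects in the Mb and the Fb were compared directly by the interaction term of limma, with the WT libraries of both tissues as the base. The effect differed between tissues for 0 of 151 members in TKO_Ex, 0 of 151 in DKO_Ex and 0 of 150 in DKO_CD, and for 0.0149%, 0% and 0.00746% of all genes. At an unadjusted p under 0.05 there were 9, 4 and 6 members (5.96%, 2.65% and 4%), where 6.5%, 3.88% and 4.83% of all genes were counted. For Ciapin1 the Mb effect minus the Fb effect was 0.086 in TKO_Ex (limma adjusted p = 0.956), -0.13 in DKO_Ex (limma adjusted p above 0.999) and -0.038 in DKO_CD (limma adjusted p = 0.995). For Cog8, which passed in the Fb and not in the Mb, the differences were -0.40, -0.18 and -0.24 (limma adjusted p = 0.865, above 0.999 and 0.990). A difference between tissues was therefore not detected for Cog8. Setd6 had the lowest unadjusted p of the members in DKO_Ex and DKO_CD, with a difference of 1.05 (SE 0.27) in DKO_CD (limma adjusted p = 0.881). Its DKO_CD libraries lay above WT in the Mb, and at 13.7, 9.12 and 9.5 FPKM in the Fb they reached below the WT Fb range of 12.2 to 27.2 FPKM.

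Between the 2 tissues of WT embryos, with libraries taken as unpaired, 7 of 151 members differed, against 8.26% of the 13344 genes tested. The Mb was higher for 6 of them, namely Adgrg1, Cx3cl1, Smpd3, Ndrg4, Cpne2 and Hsd11b2, and the Fb for Setd6. Adgrg1 was at 43.1 ± 10.5 FPKM in WT Mb libraries and 14.1 ± 2.20 FPKM in WT Fb libraries (SD, n = 6 each), a log2 difference of 1.52 (limma adjusted p = 6.96e-05). Its lowest Mb library, at 24.4 FPKM, lay above its highest Fb library, at 16.5 FPKM. Cx3cl1 was at 5.06 ± 0.540 and 1.5 ± 0.492 FPKM, a log2 difference of 1.30 (limma adjusted p = 8.79e-05). It rests on few fragments, an estimated 2 to 16 per library. Smpd3, a neutral sphingomyelinase, was at 3.02 ± 0.450 and 0.920 ± 0.259 FPKM, a log2 difference of 1.07 (limma adjusted p = 0.000286). Both also had no overlap between the tissues.

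The other 4 members differed by less. Ndrg4 was at 3.54 ± 1.40 FPKM in the Mb and 1.54 ± 0.380 FPKM in the Fb (SD, n = 6 each, limma adjusted p = 0.0213). Cpne2, of the copine family, was at 7.62 ± 2.51 and 4.09 ± 1.23 FPKM (limma adjusted p = 0.0453), and Hsd11b2, which inactivates glucocorticoids, at 17.7 ± 3.02 and 12.6 ± 1.98 FPKM (limma adjusted p = 0.0466). Setd6 was at 10.9 ± 1.12 FPKM in the Mb and 18.1 ± 5.36 FPKM in the Fb (limma adjusted p = 0.0248). When each WT library was left out in turn, the calls of Adgrg1, Cx3cl1 and Smpd3 held in 12 of 12 fits, Ndrg4 in 10, Setd6 in 9, Cpne2 in 4 and Hsd11b2 in 2. By role, 4 of the 12 neural signalling and adhesion genes tested were higher in the Mb, and 1 of the 23 genes of gene regulation and chromatin, Setd6, was higher in the Fb. Cpne2 and Hsd11b2 belong to no list, and the other 6 lists held 0 calls.

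**Figure D5:**
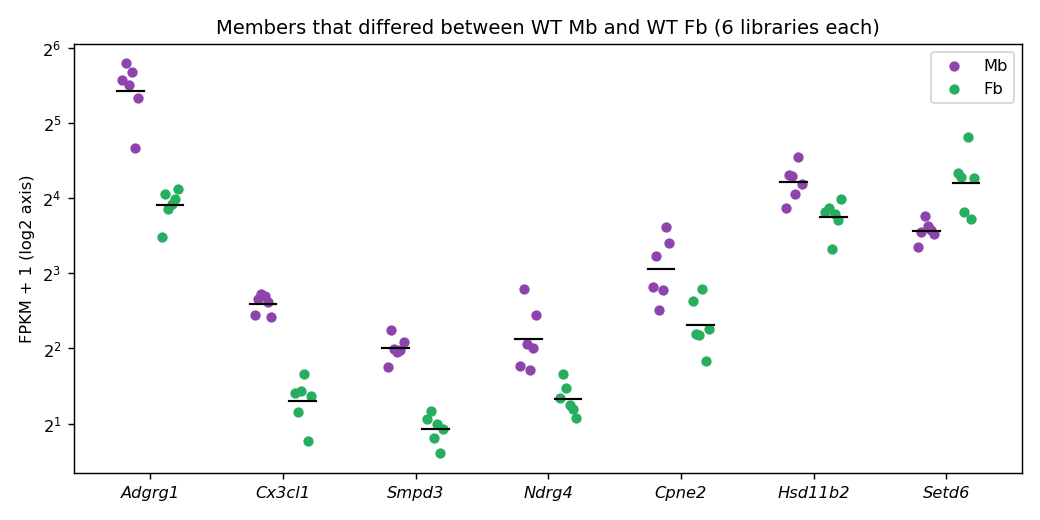
FPKM + 1 on a log2 axis in each of the 6 WT Mb and 6 WT Fb libraries (points) for the 7 members that differed between the tissues, with the mean on the log2 scale (bars). Adgrg1, Cx3cl1 and Smpd3 separate without overlap, with means of 43.1 against 14.1, 5.06 against 1.5 and 3.02 against 0.920 FPKM.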

How the data were processed

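RNA of the Fb and Mb of E9.5 embryos was measured in 32 libraries. Directional libraries were aligned by the authors to GRCm38 with TopHat2, and the deposited FPKM per gene are from Cufflinks, relative to transcript length and mapped fragments. Versions are not given in the sources used here. The authors' own test, DESeq2 on HTSeq read counts, was not repeated, because the files hold FPKM. FPKM of 65 repeated identifiers were summed, and positions are those of GENCODE M21. The estimated fragments per library were 111 to 268 for Ciapin1 and 29 to 98 for Cog8. They were fewer for some genes of a few FPKM, at 2 to 16 for Cx3cl1, 4 to 31 for Ndrg4 and 0 to 18 for Esrp2.

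Tests were run on log2(FPKM + 1) by lmFit and eBayes (limma 3.58.1, R 4.3.3), letting the prior variance follow the mean level and without further scaling. A gene entered a fit when its FPKM averaged 1 or more there. P-values are two-sided and adjusted by Benjamini-Hochberg over all genes tested, with a threshold of 0.05. Each comparison with WT had its own fit, and the interaction used both tissues. The procedure was tested on simulated Mb libraries only, with a fixed spread and with changes larger than those of Ciapin1 and Cog8. That test does not show how well changes of their size are found. The members and lists were chosen with earlier results of these data known. Genes named by rule were members past the threshold, the 5 members per tissue with the largest change among those without overlap in the pooled comparison, the 3 tested members nearest each deletion and the most abundant member of each list. Alternatives were another pseudocount, no filter, median-of-ratios scaling, no trend, 1 fit for all groups and grouping by record. Further alternatives were gene starts taken by strand, the replicate number as a block, and leaving out each library in turn.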

Additional observations from a re-analysis of the deposited data

Results flagged for a closer look

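Libraries that stood far from the others of their group were sought by Dixon's ratio in 152 sets of WT or TKO_Ex libraries, over 38 genes. There were 10 such libraries, and chance gives about 1 in 20 sets, or 7.6. In the WT Mb, 4931428F04Rik was at 9.52 FPKM in replicate 2, against 5.95 to 6.85 FPKM in the others. Replicate 3 of the WT Mb had 13.0 FPKM of Atxn1l, against 8.90 to 10.2 FPKM, and 2.10 FPKM of Esrp2, against 0 to 0.696 FPKM. In the WT Fb, Dhodh was at 39.2 FPKM in replicate 3, against 12.6 to 17.9 FPKM in the others. Exosc6 was at 2.26 FPKM in WT Fb replicate 4, against 16.4 to 21.7 FPKM. Dhx38 was at 30.0 FPKM in WT Fb replicate 6, against 27.4 to 28.3 FPKM.

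In the TKO_Ex Mb, replicate 3 had 31.7 FPKM of Adgrg1, against 43.0 to 44.8 FPKM in the others, and 22.9 FPKM of Dhodh, against 19.4 to 19.7 FPKM. This is the library with Cdh6 in the WT range. Cklf was at 11.9 FPKM in TKO_Ex Mb replicate 4, against 6.65 to 7.13 FPKM, and Got2 at 99.4 FPKM in TKO_Ex Mb replicate 1, against 104 to 105 FPKM.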

How the results depend on the processing

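Of 104 recomputed counts of members past the threshold, 99 did not move beyond 1.5 times. The counts of single groups and of the interaction were all 0 in the main fit, so they could only rise. Grouping by record could move none of the counts. It leaves the pool and TKO_Ex as they are and exchanges the double knockout groups, which both had 0 members. A count can also stay while its genes change. With a library left out, 91 counts stayed and 9 moved. Ciapin1 passed in the DKO_Ex Mb with median-of-ratios scaling (1 member, limma adjusted p = 0.0386) and with all groups in 1 fit (1 member, adjusted p = 0.0423), and in the DKO_CD Mb with all groups in 1 fit (1 member, adjusted p = 0.0344). The labels do not say what a shared replicate number marks. Libraries of 1 number correlated at -0.0863 to 0.0487 between mutants and WT and at 0.00756 to 0.140 between tissues. Not every pair was over 0.1, and libraries were taken as unpaired. Low correlations do not show that the Fb and Mb libraries of 1 number came from different embryos. As a hint from the data, 5 of 6 WT, 3 of 4 TKO_Ex, 3 of 3 DKO_Ex and 2 of 3 DKO_CD libraries correlated best with their own number in the other tissue. The tests between tissues may therefore leave out a real pairing. With the replicate number as a block, the pooled Fb had 0 members (Ciapin1 adjusted p = 0.182, Cog8 0.160), the DKO_CD Fb 1, Gm10073 (log2 fold change 2.28, adjusted p = 0.0257), and in the pooled Mb Ciapin1 (-0.59, adjusted p = 0.0669) gave way to Gm10073. That block drops WT libraries whose number no mutant library has, namely replicates 5 and 6 in the pool and 4 to 6 for DKO_CD. The DKO_CD Fb was thus set against WT Fb replicates 1 to 3, where Gm10073 was lowest within WT, as given below. Leaving out each library in turn gave 1 to 2 members in the pooled Mb, 0 to 2 in the pooled Fb, with 0 only without WT Fb replicate 2, and 4 to 8 between WT tissues. The log2 fold change of Ciapin1 then ran from -0.60 to -0.52 in the Mb and from -0.59 to -0.51 in the Fb, and that of Cog8 in the Fb from 0.39 to 0.47. Cog8 in the TKO_Ex Mb, which passed nothing, ran from -0.084 to 0.39, and was at -0.060 without WT Mb replicate 5 and TKO_Ex Mb replicate 3. Zdhhc1 in the DKO_CD Fb was at -0.18 by record, which is the value of the libraries called DKO_Ex here. The causes of the changes under the other settings were not tested. Between WT tissues, 6 members passed with the block, Mt1 and Mt2 among them and Setd6 not (adjusted p = 0.0580), and Hsd11b2 or Cpne2 lost the call without a filter, with another pseudocount, with scaling, without a trend or with the block (adjusted p from 0.0519 to 0.123). Low fragment numbers limit genes near 1 FPKM and others such as Cx3cl1, Ndrg4 and Esrp2.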

Other observations

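A pair of members, chosen after their values were seen, differed within WT between the libraries numbered 1 to 3 and those numbered 4 to 6 in both tissues. Gm10073 was at 157, 146 and 155 FPKM and then 571, 409 and 499 FPKM in WT Mb libraries, and at 174, 197 and 191 FPKM and then 564, 802 and 576 FPKM in the WT Fb. Cyb5b, a cytochrome of the outer mitochondrial membrane, was at 47.6, 52.1 and 56.8 FPKM and then 44.3, 42.5 and 38.9 FPKM in Mb libraries. In Fb libraries it was at 51.6, 51.0 and 53.5 FPKM and then 41.7, 38 and 35.4 FPKM. The labels give no batch for these libraries. The log2 fold change of Cyb5b in the pooled mutants was 0.30 in the Mb (limma adjusted p = 0.264) and 0.31 in the Fb (limma adjusted p = 0.272).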
